A study of Drosophila melanogaster with 48 samples.

Results

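The UDP-glycosyltransferases of Drosophila melanogaster were taken as all rows of the deposited gene table whose symbol is Ugt followed by a digit, which gave 35 genes of 14205. Their RNA was measured in the abdominal fat body of mated w1118 females, a tissue that by the labels includes oenocytes and epidermis, taken after removal of the gut, the ovaries and the Malpighian tubules. Restricted flies received a diet with 5% sucrose and yeast and control flies one with 15%, for 5 days from an age of about 3 days, at 25 °C under a cycle of 12 h light to 12 h dark, so that both groups were about 8 days old at dissection. Tissue was taken at 12 times of day, every 2 h from zeitgeber time (ZT, counted from lights on) 2 to 24, with 2 libraries for each diet and time and about 10 pooled flies per library. This gave 24 restricted and 24 control libraries of 1 strain and 1 sex.

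UDP-glycosyltransferases sit in the membrane of the endoplasmic reticulum and move a sugar from a UDP-sugar to small fat-soluble molecules, which become more soluble in water and easier to excrete. In insects the sugar is mostly glucose. The substrates include plant toxins, insecticides, pigments, odorants and hormones, and the insect fat body, gut and Malpighian tubules are the organs best known for this step of detoxification.

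The libraries held between 5815484 and 33485917 estimated counts, with a median of 11728547. Ribosomal RNA rows took a median of 1.11% of the counts in restricted libraries (highest 53.8%, at ZT 2 in replicate 1) and 0.375% in control libraries (highest 4.80%). TPM (a level per transcript length, scaled to a fixed total per library) is lowered for all other genes in that restricted ZT 2 library. The lowest restricted TPM given below for Ugt49B1, Ugt301D1 and Ugt37D1 is from that library. So is the lowest restricted TPM in the high window of Ugt36D1. Fat body markers averaged 8.59 ± 0.23 log2 CPM (counts scaled to library size) in restricted libraries and 8.69 ± 0.40 in control libraries (SD, n = 24 each). The order of the diets differed by replicate number (n = 12 each). In replicate 1 the averages were 8.70 in restricted and 8.48 in control libraries, and in replicate 2 they were 8.47 and 8.89. Ovary markers, of a tissue that had been removed, averaged 2.95 ± 2.14 log2 CPM in restricted libraries and 5.03 ± 1.32 in control libraries. In bulk tissue, fewer cells of a type and less RNA per cell cannot be told apart.

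The 35 genes lie on chromosome arms 2L (11 genes), 2R (5), 3L (2) and 3R (17) in the Ensembl annotation of the BDGP6 assembly. The arms were used only for gene order, because the sources used here do not name the annotation behind the counts. Of the 35, 22 stand in 7 runs of neighbouring family members and 13 stand alone. The longest run has 6 genes on 3R: Ugt35E1, Ugt35E2, Ugt35B1, Ugt35A1, Ugt304A1 and Ugt303A1. Ugt36D1 (FBgn0032713) lies between Ugt36F1 and Ugt36E1 on 2L, and the Ugt49B1 and Ugt49C1 genes are a pair on 2R.

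A few members carried most of the family's RNA. The summed TPM of the 35 genes was 405 ± 103 in restricted libraries and 357 ± 60.7 in control libraries (SD, n = 24 each). Of the summed mean level, 72.5% came from 5 genes and 89.7% from 9. These 9 had a mean of at least 10 TPM, while 9 others lay between 1 and 10 TPM, 13 between 0.1 and 1 TPM and 4 below 0.1 TPM. Counts were above 0 in all 48 libraries for 17 members and at 0 in at least 1 library for 18.

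**Figure D1:**
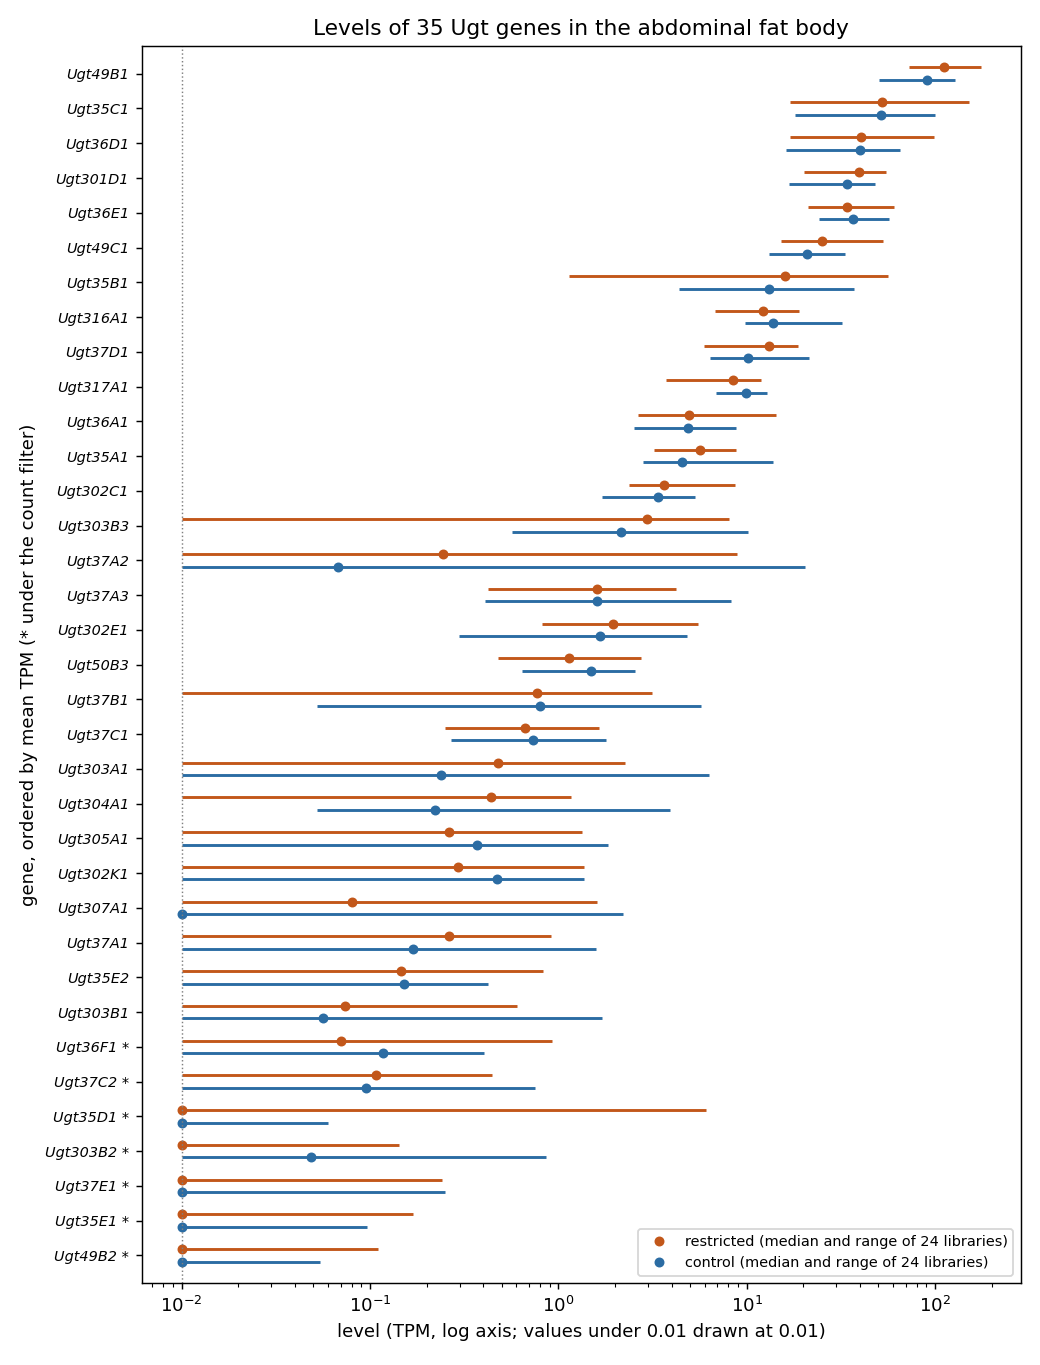
Level of each of the 35 Ugt genes in TPM on a log axis, with the median (point) and range (line) of the 24 restricted libraries above those of the 24 control libraries; values under 0.01 TPM are drawn at 0.01. Ugt49B1 had the highest mean, 101 TPM, and the 7 genes marked with an asterisk did not pass the count filter.

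Ugt49B1 was the most abundant member on both diets. It measured 72.7 TPM at lowest, 111 at the median and 175 at highest in restricted libraries, against 50.4, 91.3 and 127 TPM in control libraries. The 72.7 TPM is from the ZT 2 library with 53.8% ribosomal RNA, where Ugt49B1 stood at 166 CPM. By CPM its lowest restricted library was that at ZT 16 in replicate 1, with 100.1. Ugt35C1, listed in RefSeq also as Ugt86Dd and known for its part in the nicotine resistance of larvae, came second with 17.0, 52.2 and 152 TPM in restricted libraries and 18.0, 51.6 and 100.1 TPM in control libraries. Ugt49B1 exceeded Ugt35C1 in 44 of the 48 libraries, although the ranges of both genes overlap.

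Ugt36D1 was the third by mean level, with 17.1, 40.7 and 99.4 TPM as lowest, median and highest in restricted libraries and 16.2, 39.9 and 65.0 TPM in control libraries. Ugt301D1 followed with a mean of 39.4 ± 8.44 TPM in restricted libraries and 33.8 ± 7.19 TPM in control libraries. Ugt36E1, which in antennae takes part in the handling of pheromones, had 36.6 ± 10.2 TPM in restricted libraries and 36.4 ± 8.10 TPM in control libraries. These 3 neighbours in the order did not separate: Ugt36D1 exceeded Ugt301D1 in 27 of 48 libraries, and Ugt301D1 exceeded Ugt36E1 in 31.

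Below them stood Ugt49C1 with 26.5 ± 8.06 TPM in restricted libraries and 21.9 ± 5.35 TPM in control libraries. It was higher than the next gene, Ugt35B1, in 38 of 48 libraries. Ugt35B1, first described as an enzyme of the antenna, ranged from 1.13 to 56.5 TPM in restricted libraries and from 4.38 to 37.4 TPM in control libraries. Ugt316A1 (13.6 TPM on average over all libraries) and Ugt37D1 (12.1 TPM) closed the group above 10 TPM. Ugt317A1, Ugt36A1 and Ugt35A1 came next with 9.23, 5.45 and 5.44 TPM, and the last pair had no order between them, with Ugt36A1 above Ugt35A1 in 23 of 48 libraries.

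Neighbours on the chromosome had very unequal levels. Within the run of Ugt37C2, Ugt37E1 and Ugt37D1, 98.6% of the summed mean TPM came from Ugt37D1, and within that of Ugt303B3, Ugt303B1 and Ugt303B2, 92.3% came from Ugt303B3. In the run of 6 genes on 3R the share of Ugt35B1 was 70.0%, with Ugt35E1 at 0.0264 TPM. The pair Ugt37A2 and Ugt37A3 had nearly equal means of 2.04 and 1.93 TPM, but their estimated counts were whole (within 0.01) in only 45.8% of libraries. A fractional count shows reads divided between transcripts, so the split within that pair is uncertain.

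For 31 of the 35 genes the counts were whole in every library. The 4 exceptions were Ugt37A2, Ugt37A3, Ugt37A1 and Ugt36A1, and Ugt36A1 was whole in 10.4% of libraries. Ugt36A1 is one of 5 members that overlap another gene on the opposite strand in the annotation, here CG15418. The others are Ugt36E1 (with CG17597), Ugt49B1 (CG44245), Ugt307A1 (Pvf2) and Ugt50B3 (TpnC4). The sources used here do not say whether counting used strand, and reads of such pairs may be mixed.

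The tests of time and diet covered the 28 members that passed the filter on low counts, among 10070 genes. The 7 members that did not pass were Ugt36F1, Ugt37C2, Ugt35D1, Ugt303B2, Ugt37E1, Ugt35E1 and Ugt49B2. Their mean levels reached at most 0.168 TPM, and the lowest mean of a tested member was 0.190 TPM (Ugt303B1).

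Ugt36D1 had the strongest daily rhythm of the family. On the restricted diet its mean of 2 libraries was highest at ZT 4, 88.2 TPM (77.0 and 99.4 in the libraries), and lowest at ZT 14, 19.4 TPM (17.1 and 21.8). On the control diet it was highest at ZT 4 as well, 56.9 TPM (48.8 and 65.0), and lowest at ZT 16, 17.7 TPM (16.8 and 18.6). The level was thus high in the morning and low in the first hours of the dark on both diets.

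Apart from ZT 10, the libraries fell into separate windows of high and low level. On the restricted diet all 12 libraries from ZT 22 through ZT 8 held at least 40.1 TPM of Ugt36D1 and all 10 libraries from ZT 12 to ZT 20 held at most 34.4 TPM. On the control diet the lowest of the 12 libraries in the first window was at 43.7 TPM and the highest of the 10 in the second at 33.3 TPM. At ZT 10, in neither window, the restricted libraries held 41.3 and 39.1 TPM and the control libraries 31.5 and 36.1 TPM. These windows were chosen after the values had been seen and carry no test.

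**Figure D2:**
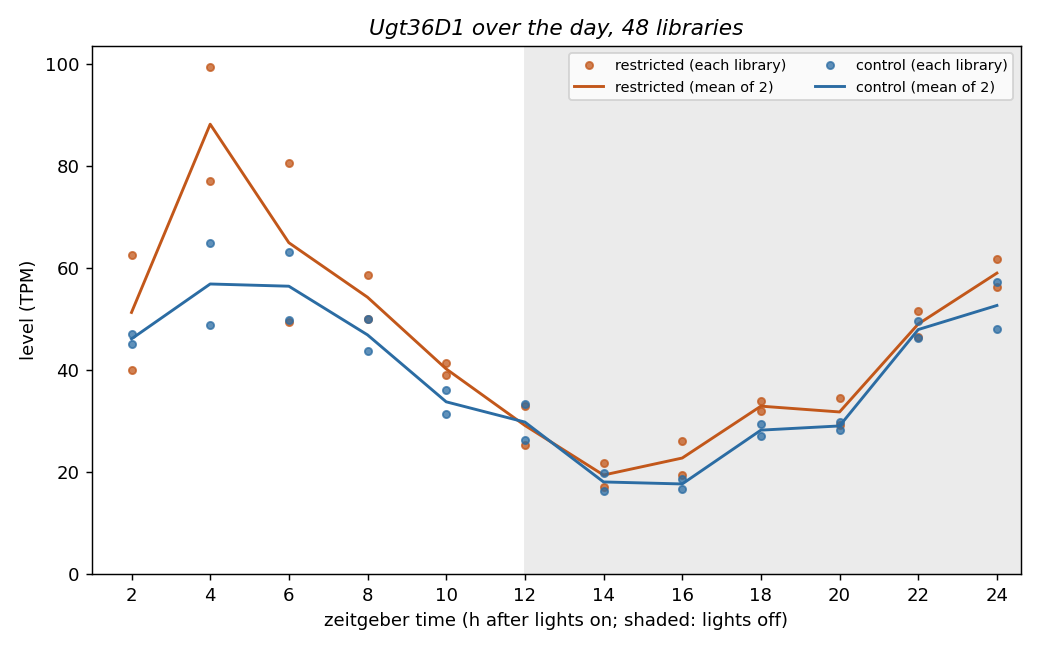
Level of Ugt36D1 in TPM against zeitgeber time, with 1 point per library and a line through the means of 2 libraries for the restricted diet and for the control diet; shading marks the dark phase. Both lines peak at ZT 4 and are lowest at ZT 14 (restricted, 19.4 TPM) and ZT 16 (control, 17.7 TPM).

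A cosine curve of 24 h fitted to log2 CPM gave Ugt36D1 an amplitude (mean to peak) of 0.88 ± 0.08 on the restricted diet and 0.67 ± 0.08 on the control diet (log2 ± SE, 24 libraries each). The fitted peak fell at ZT 3.38 on the restricted diet and at ZT 3.36 on the control diet. Averaged over the diets the amplitude was 0.78 ± 0.06, a 2.94-fold difference between fitted peak and trough, and the peak was at ZT 3.37 ± 0.29. In edgeR's quasi-likelihood test the rhythm averaged over diets had an adjusted p of 1.5e-12, the third smallest p of the 10070 genes after the clock gene vri and the gene CG17560. The call held when either replicate series was used alone.

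Of the 28 tested members, 6 were rhythmic on average of the diets at an adjusted p under 0.05 (edgeR), and 4.47% of all genes tested were. Besides Ugt36D1 these were Ugt36A1, Ugt37D1, Ugt302E1, Ugt49C1 and Ugt36E1. On the restricted diet alone 2 members passed, Ugt36D1 and Ugt36A1 (1.15% of all genes), and on the control diet alone 2 passed, Ugt36D1 and Ugt37D1 (1.34% of all genes). The median of the average amplitude was 0.26 over the 28 members and 0.12 over all genes (log2). A fitted amplitude is above 0 for every gene and can be large where libraries scatter. Ugt37A2, which was not called, had 1.02 ± 0.48 (log2 ± SE). The medians therefore do not show that the family is more rhythmic than other genes.

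The peaks of these genes were spread over the day. Ugt36A1, known as Dorothy, peaked in the late dark at ZT 21.1 ± 0.70 with an amplitude of 0.40 ± 0.07 (log2 ± SE, adjusted p = 4.2e-04 by edgeR). Its highest mean of 2 libraries was at ZT 20 on both diets, 10.0 TPM on the restricted diet (5.68 and 14.4) and 7.18 TPM on the control diet (5.54 and 8.82). Its lowest was at ZT 14 on the restricted diet, 3.32 TPM, and at ZT 8 on the control diet, 3.18 TPM. Its counts are shared with other transcripts, and its call on the restricted diet was lost in 10 of the 48 fits that left out 1 library.

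Ugt37D1 peaked in the early dark, at ZT 14.3 ± 0.66, with an amplitude of 0.42 ± 0.07 (log2 ± SE, adjusted p = 0.00122 by edgeR). On the restricted diet its highest mean of 2 libraries was at ZT 18, 17.4 TPM (16.5 and 18.3), and its lowest at ZT 24, 10.4 TPM (8.28 and 12.5). On the control diet the highest was at ZT 14, 18.1 TPM (14.8 and 21.4), and the lowest at ZT 24, 6.57 TPM (6.51 and 6.63). The amplitude was 0.27 ± 0.10 on the restricted diet (adjusted p = 0.607, edgeR) and 0.58 ± 0.10 on the control diet (adjusted p = 0.00438, edgeR).

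Ugt302E1 peaked near lights off at ZT 11.9 ± 0.90, with an amplitude of 0.57 ± 0.14 (log2 ± SE, adjusted p = 0.00782 by edgeR). Its levels were low, from 0.822 to 5.50 TPM in restricted libraries and from 0.297 to 4.85 TPM in control libraries, with wide gaps between the 2 libraries of a time point. Ugt49C1 peaked at ZT 5.72 ± 1.00 with an amplitude of 0.27 ± 0.07 (adjusted p = 0.0259, edgeR). Ugt36E1, the neighbour of Ugt36D1, peaked at ZT 1.17 ± 1.01 with 0.20 ± 0.05 (adjusted p = 0.0437, edgeR), and that call was lost in 23 of the 48 fits that left out 1 library.

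**Figure D3:**
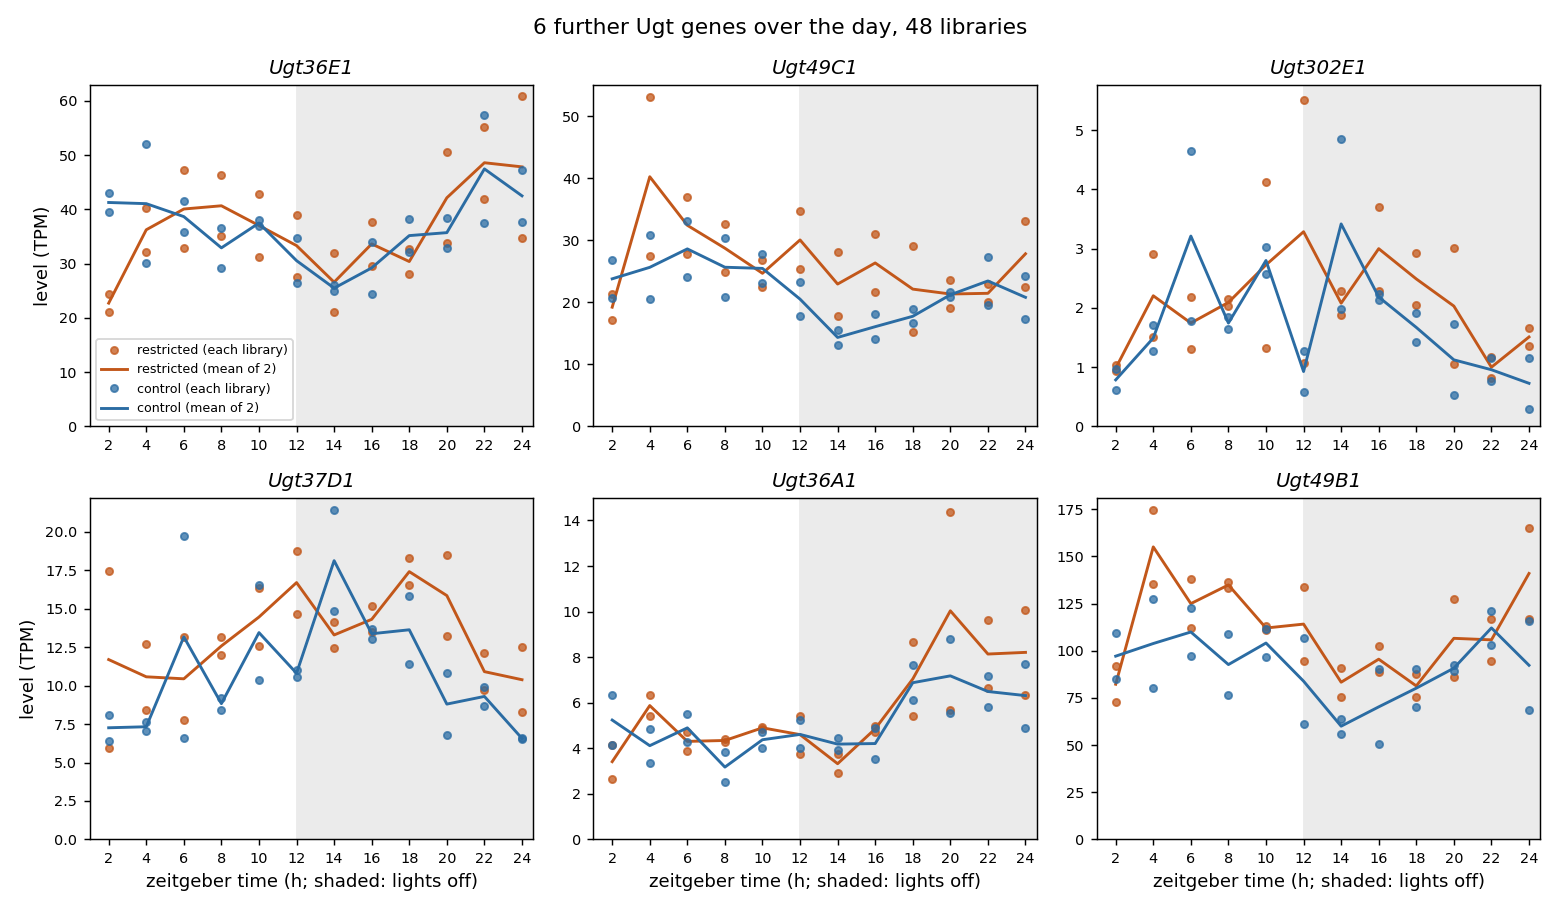
Levels in TPM against zeitgeber time for Ugt36E1, Ugt49C1, Ugt302E1, Ugt37D1, Ugt36A1 and Ugt49B1, with 1 point per library and lines through the means of 2 libraries for the restricted diet and for the control diet; shading marks the dark phase. Ugt36A1 is highest at ZT 20 on both diets, and Ugt37D1 is highest at ZT 18 (restricted) and ZT 14 (control).

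No member had a rhythm that differed between the diets. The test of that difference called 0 of 28 members and 0.0199% of all genes (edgeR, adjusted p), and no member reached an unadjusted p under 0.05. The amplitudes of Ugt36D1 and of Ugt37D1 are therefore not shown to differ between the diets.

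Of 24 gut markers tested, 14 were rhythmic on average (edgeR), beside 4.47% of all genes, but only 1 was on each diet alone. Their mean score was highest at ZT 14 (3.17 log2 CPM) and lowest at ZT 20 (-0.86). Libraries of 1 time differed widely: at ZT 14 the score ran from -0.68 (restricted, replicate 2) to 7.46 (control, replicate 1). With the ovary and gut scores in the fit, 3 members stayed below the threshold, Ugt36D1, Ugt36A1 and Ugt49C1, and 2.50% of all genes did. The adjusted p of Ugt37D1 was then 0.0521, that of Ugt302E1 0.112 and that of Ugt36E1 0.239 (edgeR). What part these tissues have in the 3 lost calls was not tested.

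A small group of the abundant members was higher on the restricted diet. At an adjusted p under 0.05 in edgeR, with time as a factor, 5 of the 28 tested members were higher on the restricted diet and 0 were lower, where 10.4% of all genes tested were higher and 15.4% lower. The 5 were Ugt37D1, Ugt49B1, Ugt49C1, Ugt301D1 and Ugt36D1. All have a mean level above 10 TPM. At an unadjusted p under 0.05 there were 8 members, in either direction, and 39.5% of all genes.

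Ugt36D1 had the smallest adjusted p of these. Its log2 change, restricted over control, was 0.31 ± 0.07 (SE, adjusted p = 0.00456 by edgeR). The restricted mean of log2 CPM was above the control mean at 10 of 12 times. Counts of times for the genes below use the same scale, and counts by mean TPM can differ. The libraries of the 2 diets overlap widely, since the daily swing of Ugt36D1 is larger than the diet change. In the libraries numbered replicate 1 the change was 0.30 ± 0.11, and in those numbered replicate 2 it was 0.33 ± 0.09.

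Ugt37D1 had the largest change of the 5, 0.43 ± 0.12 (log2 ± SE, adjusted p = 0.0114 by edgeR, higher at 10 of 12 times). It measured 5.96 TPM at lowest, 13.2 at the median and 18.8 at highest in restricted libraries, against 6.41, 10.1 and 21.4 TPM in control libraries. The medians differ, but the highest TPM of all is that of a control library, at ZT 14 in replicate 1. By CPM the highest library is a restricted one, at ZT 2 in replicate 2. The lowest CPM was 13.9 in restricted libraries (ZT 6, replicate 2) and 7.55 in control libraries (ZT 4, replicate 1).

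The neighbours Ugt49B1 and Ugt49C1 were both higher. Ugt49B1 changed by 0.37 ± 0.11 (adjusted p = 0.0180, edgeR) and was higher on the restricted diet at 11 of 12 times. Ugt49C1 changed by 0.35 ± 0.10 (adjusted p = 0.0151, edgeR), at 10 of 12 times, with 15.2, 25.1 and 53.1 TPM as lowest, median and highest in restricted libraries and 13.1, 20.9 and 33.2 TPM in control libraries. For both genes the replicate 1 libraries gave the larger change, 0.62 and 0.59, against 0.19 and 0.15 in the replicate 2 libraries. The difference between the replicate series was not called for either gene (adjusted p = 0.152 and 0.121, edgeR).

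Ugt301D1 changed by 0.32 ± 0.09 (log2 ± SE, adjusted p = 0.0148 by edgeR, higher at 10 of 12 times). It had 20.1, 39.5 and 54.8 TPM as lowest, median and highest in restricted libraries and 16.8, 34.0 and 48.0 TPM in control libraries, again with a wide overlap.

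**Figure D4:**
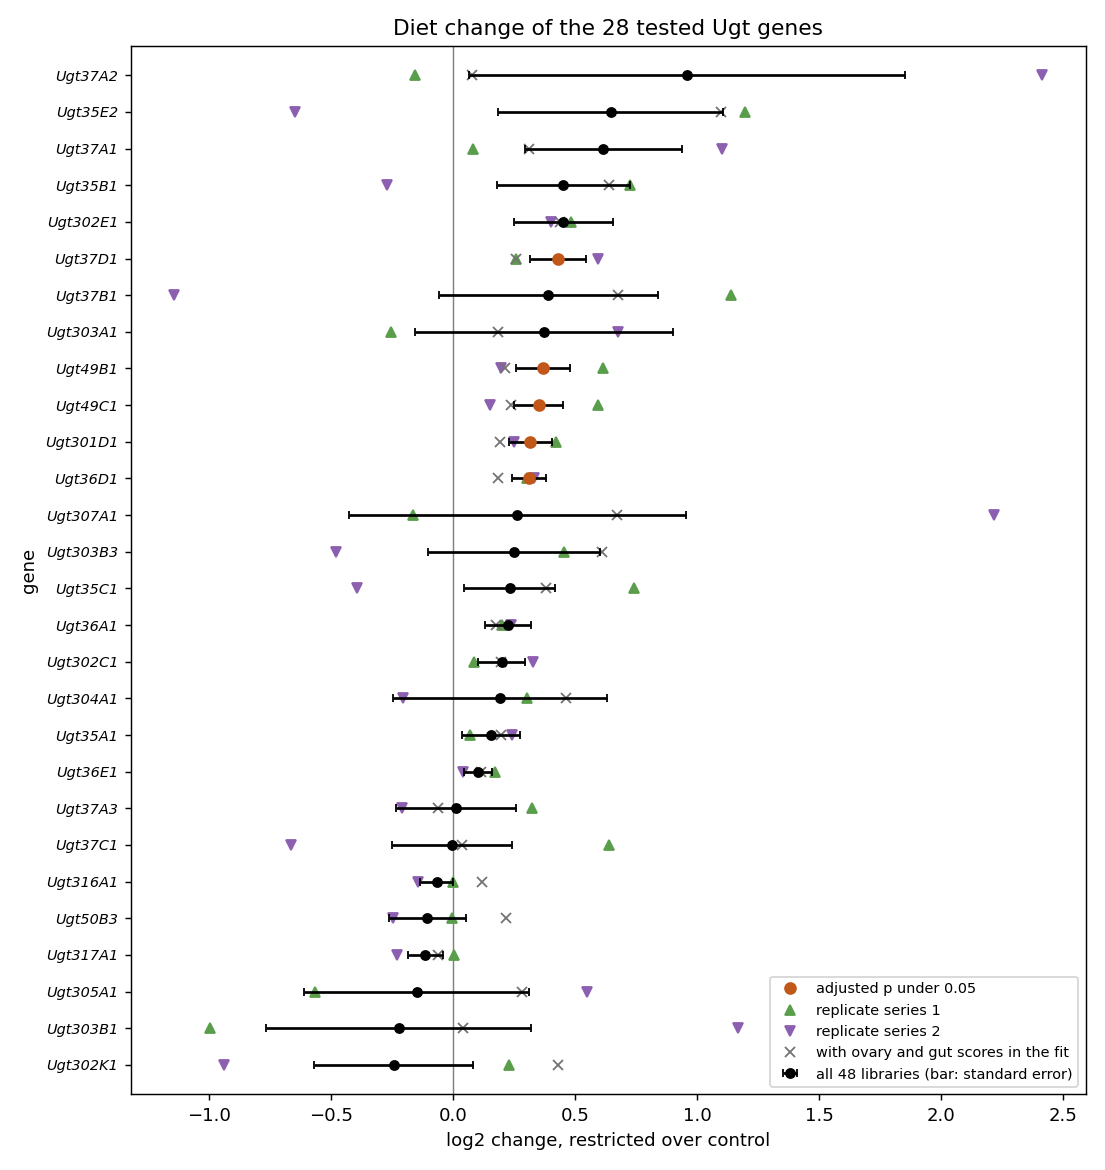
Log2 change, restricted over control, of the 28 tested Ugt genes, with the standard error of the fit over all 48 libraries, the values of replicate series 1 and 2 alone, and the value with ovary and gut scores in the fit; orange points had an adjusted p under 0.05. The 5 orange genes lie between 0.31 and 0.43, and their values with the scores are all smaller.

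Among the other 23 tested members the log2 differences, restricted minus control, ran from -0.24 (Ugt302K1) to 0.96 (Ugt37A2), with none past the threshold. Ugt37A2 had the largest value and a standard error of 0.89. Over the 28 members the median change was 0.24, against 0.01 over all genes, and 21 members were above 0, which is 75% of members against 51.6% of all genes. These are descriptions, and members that share a run are not independent of each other. Of the most abundant genes without a call, Ugt35C1 had a log2 difference of 0.23 ± 0.19 (adjusted p = 0.358, edgeR), Ugt36E1 by 0.10 ± 0.06 (adjusted p = 0.195, edgeR) and Ugt316A1 by -0.07 ± 0.07 (adjusted p = 0.464, edgeR).

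The diet calls differed between the replicate series used alone, and none remained with an ovary score in the fit. In the replicate 2 libraries alone 4 members were higher, Ugt36D1, Ugt37D1, Ugt301D1 and Ugt37A1, and 2 were lower, Ugt37C1 and Ugt317A1 (20.5% of all genes higher and 22.3% lower, edgeR). In the replicate 1 libraries alone 0 members were higher or lower, and 2 genes of all were called (0.00993% in each direction). The 5 members named above had changes above 0 in both series.

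Ovary markers were lower on the restricted diet: 14 of 25 fell and 0 rose (edgeR), with a median log2 change of -1.21. Over all genes tested, 15.4% were lower and 10.4% higher. The ovary score ran from -0.50 to 6.06 log2 CPM in restricted libraries and from 2.35 to 7.57 in control libraries, and all 25 markers passed the count filter. In the replicate 2 libraries it averaged 1.49 on the restricted diet and 4.69 on the control diet, and in the replicate 1 libraries 4.41 on the restricted diet and 5.38 on the control diet. With the ovary and gut scores as terms of the fit, 0 members were called in either direction, and 0.0993% of all genes were higher and 0.00993% lower. The changes were then 0.18 for Ugt36D1, 0.26 for Ugt37D1, 0.21 for Ugt49B1, 0.24 for Ugt49C1 and 0.19 for Ugt301D1, all still above 0. The ovary score alone gave 0 calls as well, and the gut score alone gave the same 5. The score differs between the diets, so its part in the result and that of the diet cannot be told apart in this fit.

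Markers of other cell types of the abdomen also moved with the diet. On the restricted diet 6 of 11 muscle markers, 3 of 7 oenocyte markers, 3 of 8 hemocyte markers and 3 of 10 epidermis markers were higher, and 1 epidermis marker was lower (edgeR). The median log2 differences of these lists were 0.32, 0.30, 0.30 and 0.15 in that order. Of 14 fat body markers, 2 were higher and 1 was lower. Over all genes tested, 10.4% were higher and 15.4% lower. The muscle score ran from 6.68 to 7.77 log2 CPM in restricted libraries and from 5.92 to 7.85 in control libraries, and the oenocyte score averaged 9.54 ± 0.24 in restricted libraries and 9.28 ± 0.31 in control libraries (SD, n = 24 each). For hemocytes the score ran from 5.79 to 6.85 in restricted libraries and from 4.80 to 6.85 in control libraries, and for epidermis from 1.74 to 2.57 in restricted libraries and from 1.28 to 2.47 in control libraries. All markers counted here passed the count filter, and their part in the diet changes of the 5 Ugt genes was not tested. None of these markers was called once the ovary and gut scores were in the fit, where 0.0993% of all genes were higher and 0.00993% lower.

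The diet change was also compared within 4 windows of the day, each of 3 times with 6 libraries per diet. In no window was a member or any other gene called after adjustment over 10070 genes (0% of genes, edgeR and limma alike). At an unadjusted p under 0.05 edgeR gave 4 members at ZT 2 to 6 (Ugt36D1, Ugt49C1, Ugt302C1 and Ugt37D1), with 24.4% of all genes. It gave 0 at ZT 8 to 12 (3.65% of all genes), 2 at ZT 14 to 18 (Ugt36D1 and Ugt49C1, 16.8%) and 3 at ZT 20 to 24 (Ugt35A1, Ugt301D1 and Ugt37D1, 2.80%). The change differed between windows for 0 members, also at an unadjusted p under 0.05. The median change over the 28 members was 0.31, 0.34, -0.16 and 0.46 in the 4 windows in their order, and 23, 22, 12 and 27 members lay above 0. Over all genes the medians in the same windows were 0.03, -0.01, -0.01 and 0.01, with 52.6%, 47.6%, 49.2% and 51.3% of genes above 0.

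For 2 members the diet change differed between the replicate series, Ugt35C1 and Ugt37C1, as it did for 9.46% of all genes (edgeR). In replicate 1, Ugt35C1 had 29.0, 78.6 and 152 TPM as lowest, median and highest in restricted libraries and 18.0, 50.1 and 98.7 TPM in control libraries, a log2 difference of 0.74 ± 0.30. In replicate 2 it had 17.0, 35.6 and 70.6 TPM in restricted libraries and 28.5, 52.5 and 100.1 TPM in control libraries, a difference of -0.39 ± 0.16. The order of the diets was opposite in the 2 series for the second most abundant gene of the family. Ugt37C1, at under 2 TPM in every library, had a log2 difference of 0.64 ± 0.30 in replicate 1 and of -0.67 ± 0.24 in replicate 2.

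Several members rose with the marker scores of other organs. Ugt genes are known from the gut and the Malpighian tubules, so the slope of each gene on the ovary, gut and tubule scores was tested in a fit of all 3 scores with diet and time (edgeR). Of the 28, 6 rose with the gut score (3.34% of all genes rose and 0.00993% fell): Ugt37A2, Ugt303B1, Ugt303A1, Ugt304A1, Ugt305A1 and Ugt303B3. Their slopes ran from 0.18 to 0.83 log2 units per unit of the score. Ugt37A2, the steepest, stood at 8.92 TPM in the restricted library at ZT 10 in replicate 2, with a gut score of 5.88. It also stood at 7.82 TPM in the restricted library at ZT 2 in replicate 2, with a gut score of -1.31. With the tubule score 6 rose (4.46% of all genes rose and 1.30% fell): Ugt35E2, Ugt37B1, Ugt303B3, Ugt304A1, Ugt35B1 and Ugt35C1, with slopes from 0.35 to 1.47. Together these are 10 genes, 2 with a mean of at least 10 TPM and 8 below it. Some of the 8 had few counts: Ugt303B1 averaged 3.04 per library with 0 in 16 libraries, Ugt304A1 averaged 8.38 and Ugt305A1 7.77. All of these were highest in the control library at ZT 14 in replicate 1, so their slopes may rest on few libraries.

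The tubule score was set beside Ugt35C1 by series. In replicate 1 it averaged 5.37 ± 0.29 log2 CPM on the restricted diet and 4.71 ± 0.52 on the control diet, and in replicate 2 it averaged 3.62 ± 1.45 on the restricted diet and 4.57 ± 0.41 on the control diet (SD, n = 12 each). All 11 tubule markers passed the count filter, and 0 were called by diet. The slope of Ugt35C1 on the tubule score was 0.35 (adjusted p = 0.0160, edgeR). The part of tubule RNA in the difference of Ugt35C1 between the series was not tested.

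On the ovary score 5 members had slopes below 0, Ugt37A2, Ugt37D1, Ugt49B1, Ugt301D1 and Ugt36D1, and 3 above 0, Ugt302K1, Ugt50B3 and Ugt316A1 (20.2% of all genes below and 26.6% above, edgeR). Of the 5 genes called by diet, 4 are among those with a slope below 0, and Ugt49C1 had -0.07 with an adjusted p of 0.0761 (edgeR). The slopes of Ugt36D1, Ugt49B1, Ugt37D1 and Ugt301D1 ran from -0.09 to -0.07 per unit of the score. The ovary score was lower by 2.08 units on the restricted diet, so its part in the diet changes of these genes and that of the diet cannot be told apart.

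**Figure D5:**
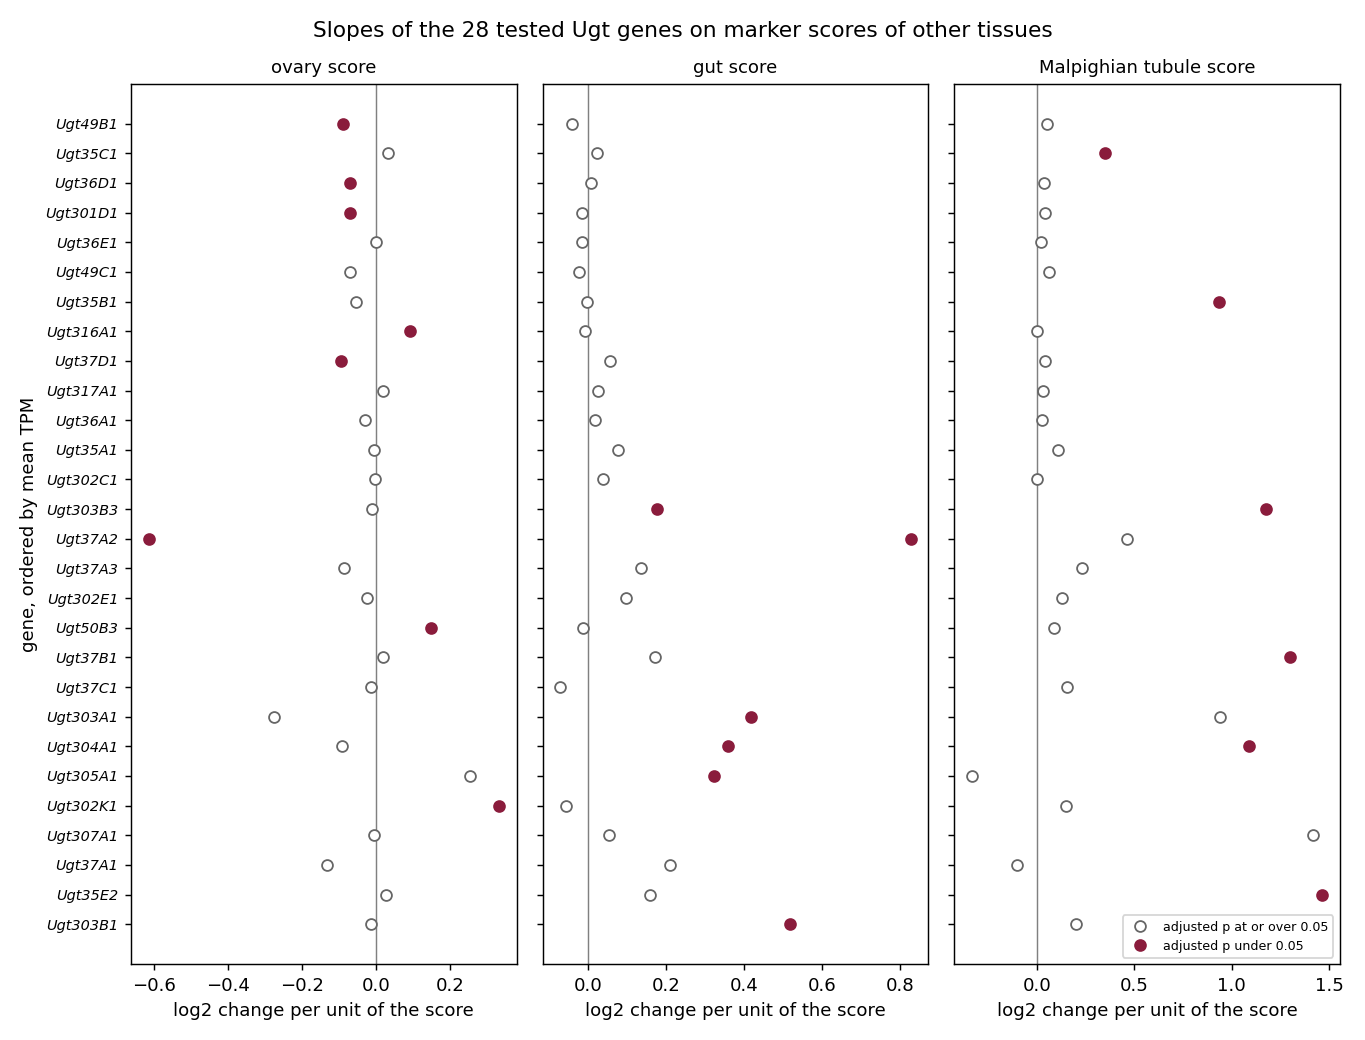
Slope of each of the 28 tested Ugt genes on the ovary, gut and Malpighian tubule scores, in log2 change per unit of the score, with genes ordered by mean TPM; filled points had an adjusted p under 0.05. The steep filled points on the gut and tubule scores, up to 0.83 and 1.47, are mostly genes of low level, and Ugt36D1 and Ugt49B1 lie near 0 on both.

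The highest values of many low members came from single libraries. The control library at ZT 14 in replicate 1 had the highest gut score of all, 7.46 log2 CPM against 5.88 in the next. It also had the lowest total of all 48, 5815484 estimated counts. In it 12 of the 35 members were highest by TPM, while 3.45% of the genes that passed the count filter were highest. The 12 include Ugt37C2, Ugt303B2 and Ugt37E1, which did not pass the filter and had at most 8 counts each in that library. Ugt37A2 reached 20.5 TPM there, against a next highest of 9.54 TPM and a median of 0.246 TPM in restricted libraries and 0.0676 TPM in control libraries. Ugt303A1 stood at 6.34 TPM and Ugt304A1 at 3.94 TPM in that library. Without it, 6 members were called by diet and 5 were rhythmic on average (edgeR).

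Genes that supply the sugar donor, control the xenobiotic response or handle conjugates were examined beside the family. Over all genes tested, 10.4% were higher on the restricted diet and 15.4% lower, and the counts of each list stand beside these shares. Of 11 tested genes of UDP-sugar supply, 1 was higher on the restricted diet and 1 lower. Hex-C, a hexokinase, changed by 0.40 ± 0.14 (log2 ± SE, adjusted p = 0.0328, edgeR), and sgl, which makes UDP-glucuronate from UDP-glucose, by -0.31 ± 0.11 (adjusted p = 0.0316, edgeR). UGP, the enzyme that makes UDP-glucose, had no diet call (log2 difference 0.25 ± 0.12, adjusted p = 0.102, edgeR) but was rhythmic on average, with an amplitude of 0.37 ± 0.08 and a peak at ZT 4.51 (adjusted p = 0.0150, edgeR).

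Of 8 regulators of the xenobiotic response 1 was higher and 2 lower. The small Maf protein gene maf-S, the partner of cnc, changed by 0.33 ± 0.08 (adjusted p = 0.00588, edgeR), the nuclear receptor gene Hr96 by -0.25 ± 0.05 (adjusted p = 0.00362, edgeR) and tgo, the shared partner of bHLH-PAS factors, by -0.25 ± 0.08 (adjusted p = 0.0174, edgeR). The genes cnc and Keap1 had log2 differences of 0.06 ± 0.07 and 0.12 ± 0.08, with no call. Of 3 tested sulfotransferases, enzymes that attach sulfate in place of a sugar, St4 was lower by diet, with a change of -1.64 ± 0.50 (adjusted p = 0.0190, edgeR). Of 8 transporters, Mdr65, an ABC exporter, was higher, with 0.36 ± 0.13 (adjusted p = 0.0386, edgeR). None of these 30 genes was called by diet once the ovary and gut scores were in the fit. In that fit only 0.0993% of all genes were higher and 0.00993% lower, so the lack of calls is not particular to these genes.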

How the data were processed

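For each gene and each of the 48 libraries the authors deposited an estimated count and, in a second table, TPM. The submitters' processing notes name kallisto 0.44.0 and FastQC. The sources used here do not name the annotation, the build or the use of strand. The deposited estimated counts, 88.2% of them whole within 0.01, were rounded. Of 14205 rows, 14051 had a symbol in the name table.

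Genes were kept with filterByExpr (minimum count 10), scaled with TMM and tested by quasi-likelihood in edgeR 4.0.16 under R 4.3.3, with p-values adjusted by Benjamini-Hochberg over 10070 genes and a threshold of 0.05. Diet was tested with time as a factor, rhythms with a 24 h cosine and sine per diet. Amplitudes with SE come from least squares on log2 CPM (prior count 2). The design text calls the replicates biological; nothing says whether replicates shared a cage or batch, so p-values may measure technical spread. Same-numbered libraries were not treated as pairs: the correlation of their deviations ranged from -0.16 to 0.46 over the 12 times and exceeded 0.1 at 8. Marker scores are the mean log2 CPM of a marker list. Alternatives were DESeq2 1.42.0, its size factors, limma 3.58.1 on log2(TPM + 1) and log2(TPM + 0.1), no filter, the replicate block, libraries left out and marker scores as terms; the single-score fits and the slopes were added after seeing the data. The members and lists were chosen with earlier results of these data known. The method was tested on simulated data. Described with full values are members called by diet or rhythm, the 5 most abundant and Ugt36D1; of the pathway lists, genes called and up to 3 others per list, plus cnc, chosen after its value was seen.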

Additional observations from a re-analysis of the deposited data

Results flagged for a closer look

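The diet changes of 2 genes stand apart because they differed between the replicate series in a test of that difference (edgeR, adjusted over all genes). For Ugt35C1 the log2 change in replicate 2 minus that in replicate 1 was -1.17 ± 0.31 (SE, adjusted p = 0.0155). For Ugt37C1 it was -1.36 ± 0.38 (SE, adjusted p = 0.0197), with restricted libraries at 0.981 ± 0.411 TPM and control libraries at 0.650 ± 0.262 TPM in replicate 1, and restricted libraries at 0.525 ± 0.243 TPM and control libraries at 0.973 ± 0.447 TPM in replicate 2 (SD, n = 12 each).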

How the results depend on the processing

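The 5 diet calls remained the same genes with DESeq2's size factors, DESeq2's own test, no filter, the ribosomal RNA rows left out and the replicate block. Ugt49C1 was lost on both TPM scales (limma), and Ugt36D1 with no time term. Leaving out 1 library in turn gave 5 to 6 calls by diet, 4 to 8 rhythms on average, 1 to 2 rhythms on the restricted diet and 2 to 4 on the control one (4 without control ZT 6 replicate 1). Without replicate 1 or without replicate 2 as a whole, the diet calls were 6 and 0, average rhythms 2 and 1, restricted rhythms 1 and 1, and control rhythms 1 and 0. With ovary and gut scores 0 diet calls, 3 average rhythms and 1 control rhythm were left, and with the ovary score alone 0 diet calls. Time as a factor in place of the cosine left 1 restricted, 1 control and 1 average rhythm, in each case Ugt36D1. Restricted rhythms numbered 1 with DESeq2's size factors and 1 with limma on log2(TPM + 1) or log2(TPM + 0.1). With no filter they numbered 3, the third being Ugt35D1. The change of Ugt35C1 was 0.74 without replicate 2 and reversed to -0.39 without replicate 1, and that of Ugt36E1 reversed to -0.013 on either TPM scale; the cause was not tested. The replicate block gave 5 diet calls, 8 average rhythms (Ugt35B1 and Ugt49B1 added; 7.27% of all genes), 2 on each diet and 0 differences between diets, and it changed no other call. The Ugt36A1 call on the restricted diet was lost without restricted replicate 2 at ZT 6, 18 or 24, or replicate 1 at ZT 6, 8, 10, 14, 20, 22 or 24. Low members, such as Ugt37A2 and Ugt307A1, have standard errors of 0.89 and 0.69 (log2). Even the change of 0.96 of Ugt37A2 was not called (adjusted p = 0.433, edgeR), so changes of that size can be missed for such genes.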

Other observations

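Ugt35D1 was seen in essentially 1 library. It was at 0 in 45 of the 48 libraries and had 174 counts (6.10 TPM) in the restricted library at ZT 22 in replicate 1, where the next highest library was at 0.0597 TPM. Only 2 other genes had at least 100 counts in that library and at most 5 in the other 47 together: CG12011 with 778 counts and CG43332 with 276. In the same library Ugt35B1 reached its highest level, 56.5 TPM. Its tubule score was 5.48 log2 CPM, near the mean of the 12 restricted libraries of replicate 1 (5.37 ± 0.29, SD, highest 5.93).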
